A study of Mus musculus with 4 samples.

Results

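The genes described here are 35 pan-leukocyte and myeloid genes, picked by symbol from a table of read counts for 23337 genes in cardiac cushions of the mouse embryo. All 35 had a row. They fall into 11 pan-leukocyte genes, 16 genes of monocytes and granulocytes, and 8 genes of Fc receptors, their adaptors and complement C1q. The symbols were picked with the difference between mutant and wildtype cushions in these libraries already known. That difference is therefore given as a description, and no count of members is evidence for it.

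Leukocytes are the cells that carry Ptprc, the phosphatase CD45, at their surface. In the embryonic heart most of them are macrophages, which derive from yolk sac and fetal liver and take up dying cells and debris. Macrophages read antibody through Fc receptors, pass the signal through Fcer1g, an adaptor with an immunoreceptor tyrosine-based activation motif (ITAM), and secrete C1q, the recognition unit of classical complement. PU.1, encoded by Spi1, is the transcription factor on which myeloid identity depends, and it binds purine-rich sites with GGAA at their core.

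Cushions, swellings in the atrioventricular canal and the outflow tract from which the heart valves form, were dissected at embryonic day 14.5 from C57BL/6 embryos, guided by GFP that a reporter makes where Cre has acted. There were 2 libraries from Nfatc1Cre;Brg1F/F mutants, in which Cre driven from the Nfatc1 locus acts in the endocardium, and 2 from littermates described only as wildtype. Total RNA was depleted of ribosomal RNA before sequencing. The sources used here do not say how many embryos entered a library, so errors measure the spread between libraries, which may be technical in part.

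Gene reads numbered 14104458 to 22426537 per library, at which 3 reads equal 0.132 to 0.212 CPM (reads scaled to the size of the library). Smarca4, which encodes Brg1, measured 251 and 231 CPM in wildtype libraries 1 and 2, against 282 and 239 CPM in mutant libraries 1 and 2, with a log2 fold change of 0.11 ± 0.14 (standard error, SE). No fall was seen. Counts cover the whole gene, and exons that Cre leaves in place or cells that never carried Cre could add to them. The part of either was not tested, and these counts do not show the deletion. Y-linked transcripts and Xist marked mutant replicate 2 as male and the 3 others as female, with 11 to 28 reads of each of 4 Y-linked genes in wildtype replicate 2. Within pair 1, where both libraries were female, the median log2 ratio of mutant over wildtype over the tested members was 1.00, and within pair 2 it was 1.03.

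Ptprc measured 6.71 CPM in wildtype replicate 1, 7.50 CPM in wildtype replicate 2, 29.4 CPM in mutant replicate 1 and 26.0 CPM in mutant replicate 2. Both mutant libraries lay above both wildtype libraries, by 3.90-fold between the means (log2 fold change 1.97 ± 0.18, SE). The same order held for 31 of the 35 members, and the 4 whose groups overlapped were Cd48, Lyz1, Lyz2 and Lgals3. Among all genes with a read the share with both mutant libraries above was 15.8%, and 17% of the tested genes. In bulk tissue, more leukocytes and more of a transcript per leukocyte cannot be told apart.

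A low count filter left 34 of the 35 members for the fit across 14316 genes, and only Cd14 was left out. Cd48, Mpo, Plac8, Trem2 and Fcgr2b, 5 in all, passed the filter only through the mutant libraries, and Lgals3 passed through 1 library of each genotype. The log2 fold change was above 0 in 34 of 34 tested members, against 49.5% of all tested genes, and above 1 in 17, against 2.04%. Its median was 1.00, beside 0.00 for all tested genes, and it ran from 0.06 for Lyz1 to 3.70 for Mpo. By edgeR's quasi-likelihood test with Benjamini-Hochberg adjustment over all genes and a threshold of 0.05, 3 members passed, Ptprc, Fyb and Mpeg1, all higher in the mutant; of all tested genes 0.0629% passed in either direction and 0.0559% with higher values in the mutant. With the replicate number as a block 9 members passed, all higher, and C1qa, Clec7a, Itgam, Mpo, Plac8 and Ptpn6 were added; of all genes 0.887% passed in either direction and 0.692% with higher values in the mutant. DESeq2 called 5 members, with Clec7a and Plac8 beside the first 3, and 0.394% of all its genes, 0.261% with higher values. By limma-voom 2 members passed, Mpeg1 and Ptprc, where 0.0489% of all genes did and 0.0419% with higher values. Without wildtype replicate 1 the edgeR fit called 0 of 34 members and without wildtype replicate 2 also 0; in each, 20 members had an unadjusted p below 0.05, as did 530 and 761 of all genes in turn; without mutant replicate 1 it called 5 and without mutant replicate 2 it called 13. The same fits called 4, 0, 163 and 396 of all 14316 genes, in that order.

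**Figure D1:**
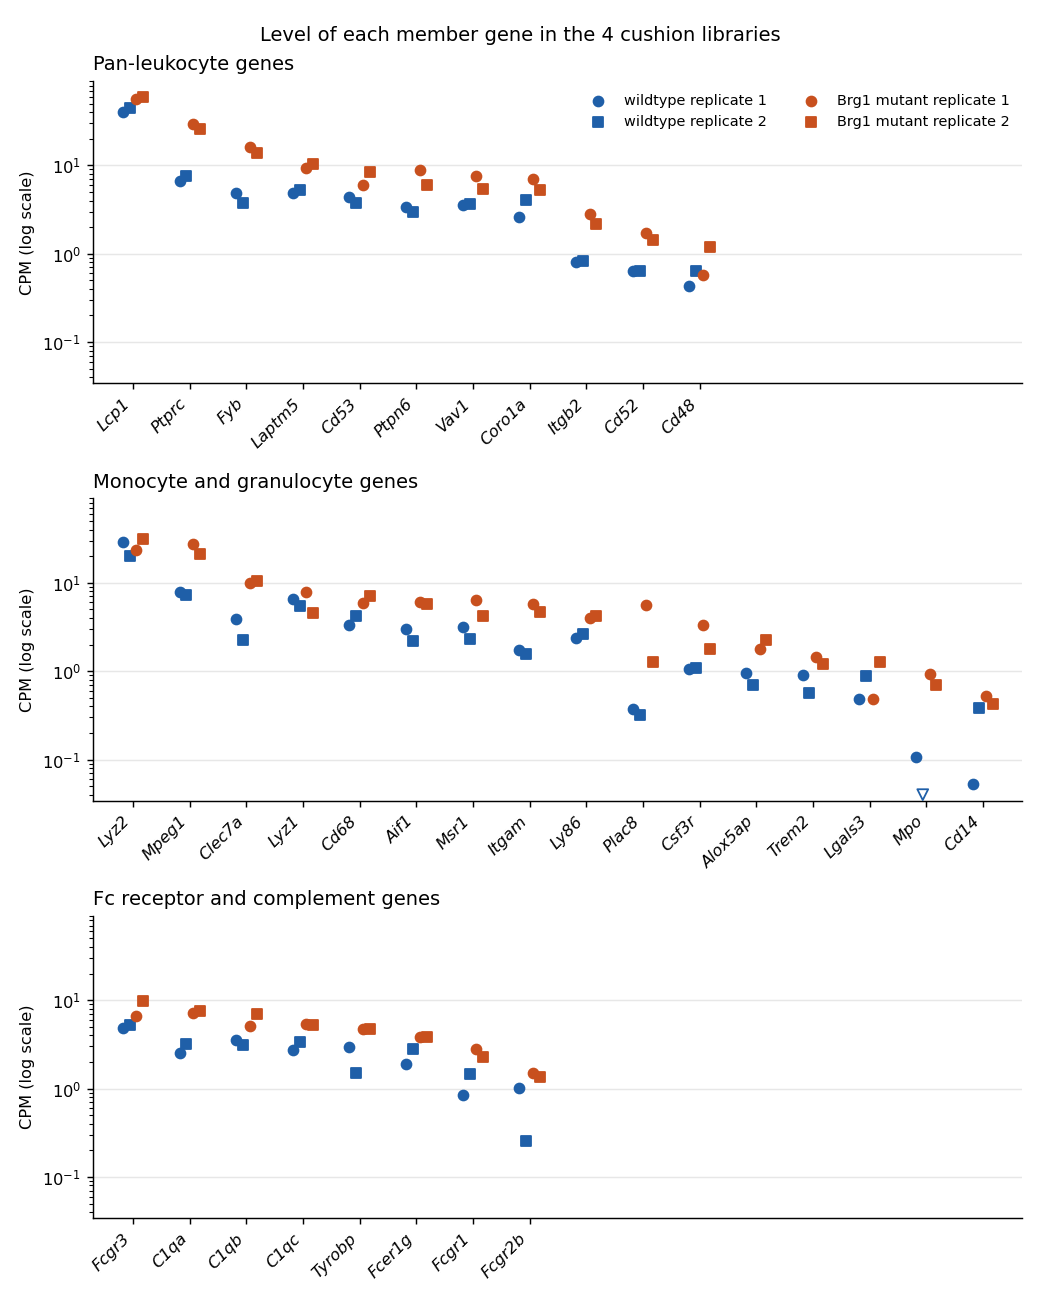
Level of each of the 35 member genes in the 4 libraries, in CPM on a log axis; blue marks are wildtype and orange marks Brg1 mutant libraries, circles replicate 1 and squares replicate 2. The open triangle stands for 0 reads of Mpo in wildtype replicate 2. Orange marks lie above blue ones in 31 genes and overlap them in Cd48, Lyz1, Lyz2 and Lgals3.

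The stretch before the start of a gene is where factors such as PU.1 bind near the transcription start. For 28 of the 35 members RefSeq windows on GRCm38.p6, the assembly behind mm10, were at hand, 34 windows in all, of which the 250 bases before the start were searched. The letters GAGGAA, the purine-rich core of many PU.1 sites, stood on either strand in 19 of the 34 member windows, or 55.9%, and in 23.3% of all 32851 windows. By gene, 17 of the 28 had a match, namely 5 of 9 pan-leukocyte genes, 8 of 13 monocyte and granulocyte genes and 4 of 6 Fc receptor and complement genes. Windows of one gene can overlap, as those of Ptprc, Fcgr3 and Clec7a do. A further 4 motifs were searched in the same way, each counted without regard to overlap with the others. CCAAT stood in 32.4% of member windows and 33.8% of all windows, GGGCGG in 23.5% and 32.7%, TATAAA in 5.88% and 12.4%, and TTGCNNAA in 14.7% and 9.56%. Member windows held a median of 4.5 CpG dinucleotides, from 1 to 16, beside 6 in all windows. A match is a run of letters and not evidence of binding.

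Upstream windows of 6 members follow, 5′ to 3′ on the gene's own strand, with GAGGAA or its complement TTCCTC in capitals. They are those of the 3 members past the threshold, of the receptor Clec7a that joined them with the block, and of an Fc receptor and a C1q chain. The windows are at chr1:138175306-138175555 (minus strand) for Ptprc, chr15:6579597-6579846 (plus) for Fyb, chr19:12460520-12460769 (plus) for Mpeg1, chr6:129472780-129473029 (minus) for Clec7a, chr3:96293970-96294219 (minus) for Fcgr1 and chr4:136886201-136886450 (minus) for C1qb.
Ptprc: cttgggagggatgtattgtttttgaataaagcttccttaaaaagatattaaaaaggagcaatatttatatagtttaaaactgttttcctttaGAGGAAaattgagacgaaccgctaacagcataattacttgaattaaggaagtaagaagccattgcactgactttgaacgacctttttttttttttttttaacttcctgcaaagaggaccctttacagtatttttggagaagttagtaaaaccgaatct
Fyb: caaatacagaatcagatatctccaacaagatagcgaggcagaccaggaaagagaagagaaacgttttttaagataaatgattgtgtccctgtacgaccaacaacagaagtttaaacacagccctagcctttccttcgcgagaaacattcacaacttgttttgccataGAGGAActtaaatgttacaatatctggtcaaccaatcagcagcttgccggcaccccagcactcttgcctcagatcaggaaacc
Mpeg1: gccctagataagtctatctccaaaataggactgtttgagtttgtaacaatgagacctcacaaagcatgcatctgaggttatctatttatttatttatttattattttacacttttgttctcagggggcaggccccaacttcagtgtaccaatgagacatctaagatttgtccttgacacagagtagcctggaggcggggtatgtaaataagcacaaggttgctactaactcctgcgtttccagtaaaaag
Clec7a: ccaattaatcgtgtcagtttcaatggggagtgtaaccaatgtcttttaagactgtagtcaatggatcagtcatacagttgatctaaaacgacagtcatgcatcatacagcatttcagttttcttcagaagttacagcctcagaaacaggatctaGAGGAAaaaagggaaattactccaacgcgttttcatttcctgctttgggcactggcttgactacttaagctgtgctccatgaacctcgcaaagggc
Fcgr1: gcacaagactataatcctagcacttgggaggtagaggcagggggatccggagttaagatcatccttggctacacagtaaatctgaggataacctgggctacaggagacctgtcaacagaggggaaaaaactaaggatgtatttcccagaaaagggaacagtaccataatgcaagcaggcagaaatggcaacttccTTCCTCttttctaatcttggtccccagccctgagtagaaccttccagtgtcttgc
C1qb: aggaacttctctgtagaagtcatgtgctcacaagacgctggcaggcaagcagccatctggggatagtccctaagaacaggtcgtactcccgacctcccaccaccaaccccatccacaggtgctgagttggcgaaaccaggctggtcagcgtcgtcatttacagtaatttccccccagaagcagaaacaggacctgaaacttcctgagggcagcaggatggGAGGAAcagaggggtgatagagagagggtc
Of these 6 windows the match lay closest to the start in C1qb, beginning 30 bases before it, then in Fcgr1 at 55, Fyb at 83, Clec7a at 96 and Ptprc at 158 bases. Mpeg1, which passed the threshold as Ptprc and Fyb did, has no such letters in its window. Ptprc and Clec7a each have a second window. That of Ptprc, at chr1:138175127-138175376, has no match either, and that of Clec7a holds the same match 90 bases before its own start.

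The pan-leukocyte genes encode proteins shared by most white blood cells. Their summed level was 72.5 CPM in wildtype replicate 1, 77.2 CPM in wildtype replicate 2, 145 CPM in mutant replicate 1 and 140 CPM in mutant replicate 2. All 11 were tested, 2 passed (Ptprc and Fyb), and Ptpn6 joined them with the block. The median log2 fold change was 0.94 and the range 0.45 to 1.97.

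The signalling proteins beside Ptprc were Fyb, Ptpn6 and Vav1. Fyb, an adaptor that links immune receptors to integrin activation (chromosome 15, 6522853 to 6663313), measured 4.90 and 3.72 CPM in the wildtype pair of libraries against 16.2 and 13.6 CPM in the mutant pair. That is 4.31 ± 0.831 against 14.9 ± 1.81 CPM (SD, n = 2 libraries each) and a log2 fold change of 1.79 ± 0.23 (SE). Ptpn6, the phosphatase SHP-1 that damps receptor signalling, measured 3.35 and 2.96 CPM in the wildtype pair of libraries against 8.84 and 6.07 CPM in the mutant pair. Its log2 fold change of 1.25 ± 0.27 missed the threshold, and with the block, where it passed, was 1.23 ± 0.29. Vav1, a signalling protein of blood cells, went from 3.59 ± 0.103 to 6.49 ± 1.59 CPM, with mutant replicate 1 the higher of its pair at 7.61 CPM.

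Ptprc itself lies on chromosome 1 from 138062861 to 138175708. Its share of all member reads was 4.26% and 4.998% in wildtype and 10.04% and 9.17% in mutant replicates 1 and 2. The 95% Wilson intervals were 3.59% to 5.05% and 4.19% to 5.95% in wildtype, and 9.34% to 10.8% and 8.32% to 10.1% in mutant libraries. Ptprc and the other members were picked with this contrast known, so these intervals are no test between the genotypes. Such intervals, here and later, hold counting error alone, because the libraries carried no stated molecular identifiers and PCR copies are not independent molecules.

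The adhesion and surface proteins were Itgb2, Cd53, Cd52 and Cd48. Itgb2, the CD18 chain shared by the leukocyte integrins, had 15 and 13 reads in wildtype and 64 and 31 reads in mutant libraries, or 0.798 and 0.820 against 2.81 and 2.19 CPM. Its log2 fold change of 1.63 ± 0.39 was among the larger ones, and it did not pass. Cd53, a tetraspanin, measured 4.36 and 3.72 CPM in the wildtype pair of libraries against 5.94 and 8.47 CPM in the mutant pair. Here mutant replicate 2 was the higher one, and the log2 ratio was 0.44 in pair 1 and 1.19 in pair 2. Cd52, a small lipid-anchored glycopeptide, had 10 to 39 reads per library and a log2 fold change of 1.30 ± 0.43. Cd48, a lipid-anchored receptor of the SLAM family, had 8 to 17 reads per library; its level of 0.572 CPM in mutant replicate 1 lay between the wildtype levels of 0.426 and 0.631 CPM.

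The cytoskeletal and lysosomal proteins were Lcp1, Coro1a and Laptm5. Lcp1, the actin-bundling protein L-plastin, was the most abundant of the group, at 40.4 and 44.2 CPM in the wildtype pair of libraries against 55.7 and 59.9 CPM in the mutant pair. The groups did not overlap, and the log2 fold change of 0.45 ± 0.14 was the smallest of the 11. Coro1a, an actin-binding coronin, spread more between libraries, at 2.61 and 4.04 CPM in the wildtype pair of libraries against 6.95 and 5.22 CPM in the mutant pair, so that its log2 ratio was 1.41 in pair 1 and 0.37 in pair 2. Laptm5, a lysosomal membrane protein, was nearly the same in both pairs, at 0.93 and 0.96, and went from 5.07 ± 0.321 to 9.77 ± 0.754 CPM.

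**Figure D2:**
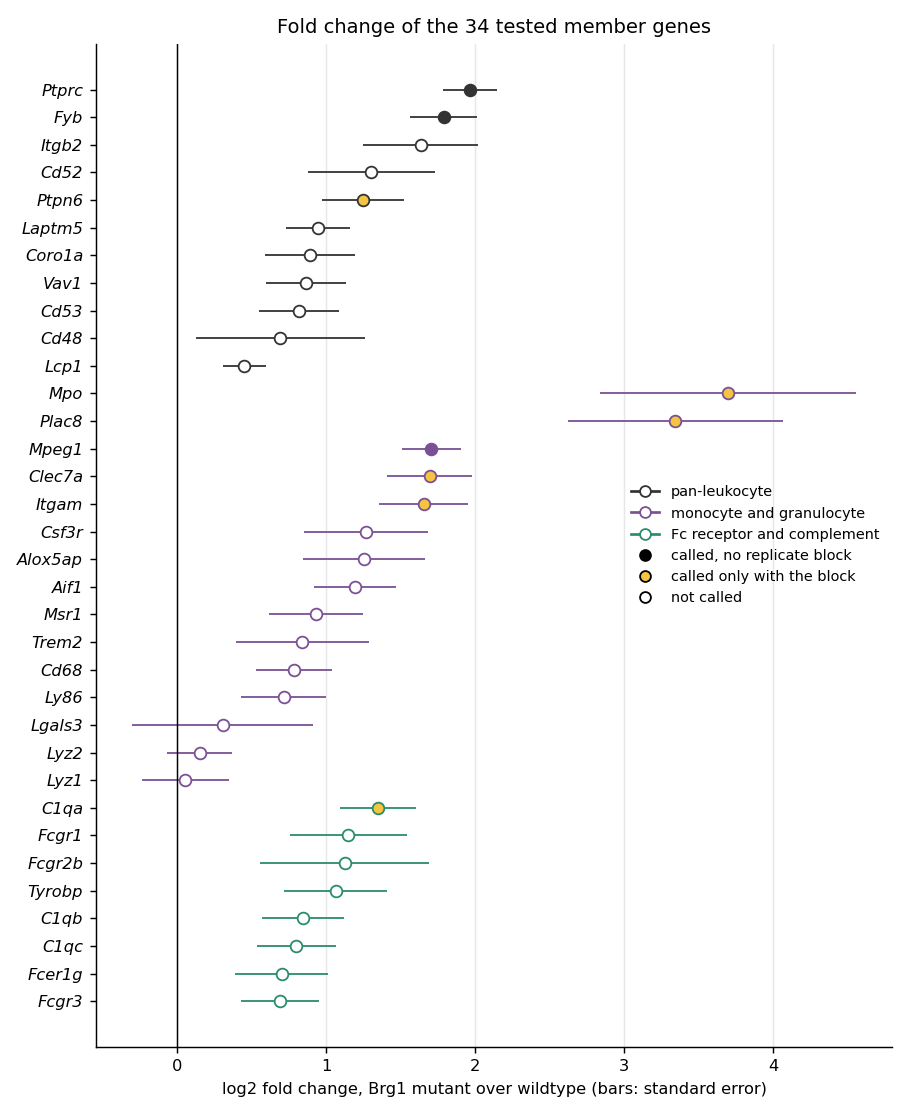
Log2 fold change of mutant over wildtype for the 34 tested members, grouped by role, with bars of 1 SE; filled points passed the threshold without the replicate block, yellow points passed only with it and open points did not pass. All points lie to the right of 0, from 0.06 for Lyz1 to 3.70 for Mpo, and the bars are widest for the genes with few reads.

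The genes of monocytes and granulocytes varied most among themselves. Their summed level was 64.6 CPM in wildtype replicate 1, 52.0 CPM in wildtype replicate 2, 111 CPM in mutant replicate 1 and 102 CPM in mutant replicate 2. Of 16 genes 15 were tested and 1, Mpeg1, passed; with the block 4 more did, and by DESeq2 the group had 3 calls. The median log2 fold change was 1.19 and the range 0.06 to 3.70. Both the smallest and the largest fold changes of the whole set were in this group.

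Mpeg1 and Cd68 act inside the macrophage. Mpeg1, the pore-forming perforin-2 of macrophages (chromosome 19, 12460779 to 12465283), measured 7.77 and 7.25 CPM in the wildtype pair of libraries against 27.5 and 21.4 CPM in the mutant pair. Its mean went from 7.51 ± 0.366 to 24.5 ± 4.35 CPM (SD, n = 2 libraries each), with a log2 fold change of 1.71 ± 0.20. Cd68, a heavily glycosylated lysosomal protein of macrophages, measured 3.35 and 4.16 CPM in the wildtype pair of libraries against 5.89 and 7.06 CPM in the mutant pair, a log2 fold change of 0.78 ± 0.26. The ratio of Cd68 was almost equal in both pairs, 0.81 and 0.76 on the log2 scale.

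Lyz1 and Lyz2, the lysozymes that cleave bacterial cell walls, did not separate the genotypes. Lyz2 measured 28.7 and 20.2 CPM in the wildtype pair of libraries against 23.4 and 31.1 CPM in the mutant pair, and Lyz1 measured 6.599 and 5.42 against 7.83 and 4.52 CPM. Lyz2 was lower in the mutant library of pair 1 and higher in that of pair 2, with log2 ratios of -0.29 and 0.62, and Lyz1 did the opposite, with 0.25 and -0.26. Their joint share of member reads was 22.4% and 17.1% in wildtype and 10.7% and 12.6% in mutant libraries. The genes lie side by side on chromosome 10 and are near copies. Of the 50-base windows of the longest Lyz1 transcript 16.1% occur in Lyz2 without a mismatch, and reads from such stretches align to several places and stayed out of the gene counts. How reads divide between the 2 genes is thus uncertain. Per kilobase of transcript, Lyz2 was the most abundant member in wildtype, at 18.6 CPM per kb, ahead of Lcp1 at 11.01, and these 2 genes had log2 fold changes of 0.15 ± 0.22 and 0.45 ± 0.14.

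The receptors of this group bind microbes, lipids, matrix or growth factors. Clec7a, the beta-glucan receptor dectin-1, measured 3.94 and 2.27 CPM in the wildtype pair of libraries against 9.85 and 10.4 CPM in the mutant pair. The mutant libraries were close to each other and the wildtype ones were not, so that the log2 ratio was 1.32 in pair 1 and 2.20 in pair 2. The log2 fold change was 1.69 ± 0.28, or 1.72 ± 0.29 with the block, where it passed. Itgam, the CD11b chain that pairs with Itgb2, measured 1.76 and 1.58 CPM in the wildtype pair of libraries against 5.76 and 4.73 CPM in the mutant pair. Its log2 fold change of 1.65 ± 0.30 matched that of its partner within the errors. Msr1, a scavenger receptor for modified lipoproteins, went from 2.76 ± 0.608 to 5.25 ± 1.53 CPM. Csf3r, the receptor for granulocyte colony-stimulating factor, was level in wildtype at 1.06 and 1.07 CPM and uneven in mutant libraries at 3.30 and 1.76 CPM. Trem2, a lipid receptor that signals through Tyrobp, had 9 to 33 reads per library and a log2 fold change of 0.84 ± 0.45. Cd14, the co-receptor for lipopolysaccharide, had 1 and 6 reads in wildtype and 12 and 6 in mutant libraries, too few to be tested, and its ratio of summed levels was 2.41 with an exact 95% counting interval of 0.962 to 6.84.

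Mpo and Plac8 had the largest ratios, on few wildtype reads. Mpo, the peroxidase of granule-forming progenitors and neutrophils, had 2 and 0 reads in wildtype and 21 and 10 in mutant libraries. Its summed level was 14.6 times higher in the mutant, with an exact 95% counting interval of 3.70 to 125. This interval, like that of Cd14, pools the reads of both libraries of a genotype and leaves out the spread between libraries. Mpo was picked with this contrast known and passed the filter only through the mutant libraries, so the interval is no test of the difference. Plac8, a small cysteine-rich protein of myeloid cells, had 7 and 5 reads in wildtype and 128 and 18 in mutant libraries, or 0.373 and 0.315 against 5.63 and 1.27 CPM. Mutant replicate 1 thus held 4.43 times the level of mutant replicate 2 (exact 95% counting interval 2.69 to 7.72). The log2 ratio of Plac8 was 3.92 in pair 1 and 2.01 in pair 2, and its mutant mean of 3.45 ± 3.08 CPM has an SD nearly as large as itself.

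Cytosolic and secreted proteins closed the group. Aif1, the calcium-binding protein Iba1 used to stain macrophages, measured 2.98 and 2.21 CPM in the wildtype pair of libraries against 6.11 and 5.79 CPM in the mutant pair, a log2 fold change of 1.19 ± 0.28. Alox5ap, which presents arachidonic acid for leukotriene synthesis, went from 0.826 ± 0.187 to 2.01 ± 0.353 CPM. Ly86, the secreted partner MD-1 of the receptor Cd180, had a log2 fold change of 0.71 ± 0.29 and nearly equal ratios in both pairs, 0.76 and 0.68. Lgals3, the lectin galectin-3, had 9 to 18 reads per library, and its 0.484 CPM in mutant replicate 1 was within 0.479 to 0.883 CPM, the wildtype range.

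The Fc receptor and complement genes spanned the narrowest range of fold changes of the 3 groups. Their summed level was 20.4 CPM in wildtype replicate 1, 21.001 CPM in wildtype replicate 2, 37.0 CPM in mutant replicate 1 and 41.7 CPM in mutant replicate 2. All 8 were tested and in all 8 both mutant libraries lay above both wildtype libraries. By edgeR 0 of the 8 passed. An unadjusted p below 0.05 with higher values in the mutant was found for 6 of them, and for 3.88% of all tested genes. DESeq2 called 0 of the 8, and C1qa was the only 1 called with the block. The median log2 fold change was 0.95 and the range 0.69 to 1.35.

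Tyrobp and Fcer1g are adaptors that carry the signal of receptors with no signalling motif of their own. Tyrobp, the adaptor DAP12 that pairs with receptors such as Trem2, measured 2.93 and 1.51 CPM in the wildtype pair of libraries against 4.66 and 4.73 CPM in the mutant pair. Its wildtype libraries differed by 1.93-fold (exact 95% counting interval 1.18 to 3.27) and its mutant libraries by 0.986, so the log2 ratio was 0.67 in pair 1 and 1.64 in pair 2. Fcer1g, the common gamma chain that the activating Fc receptors need to reach the surface, measured 1.92 and 2.84 CPM in the wildtype pair of libraries against 3.87 and 3.81 CPM in the mutant pair, with ratios in the other order, 1.01 in pair 1 and 0.43 in pair 2. Their log2 fold changes were 1.06 ± 0.35 and 0.70 ± 0.31. Per kilobase of transcript Tyrobp was the most abundant of the 8 over the 4 libraries, at 6.13 CPM per kb.

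The Fc receptors for IgG differed in level. Fcgr3, the low-affinity activating receptor, was the most abundant of them at 4.84 and 5.30 CPM in the wildtype pair of libraries against 6.597 and 9.88 CPM in the mutant pair. Mutant replicate 2 was the higher one, and the log2 fold change was 0.69 ± 0.26. Fcgr1, the high-affinity activating receptor, measured 0.852 and 1.45 CPM in the wildtype pair of libraries against 2.77 and 2.26 CPM in the mutant pair, a log2 fold change of 1.15 ± 0.39. Fcgr2b, the inhibitory receptor, had 19 and 4 reads in wildtype and 34 and 19 in mutant libraries. Its share of the reads of the 3 receptors was 15.1% (95% Wilson interval 9.87% to 22.4%) in wildtype replicate 1 and 3.60% (1.41% to 8.90%) in wildtype replicate 2, against 13.8% in mutant replicate 1 and 9.95% in mutant replicate 2. The wildtype shares lie on either side of the mutant ones, so no shift between activating and inhibitory receptors was detectable at this depth. Of the 50-base windows of the longest Fcgr3 transcript 12.8% occur in Fcgr2b.

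The C1q chains, encoded next to each other on chromosome 4, assemble in equal numbers into C1q. C1qa measured 2.55 and 3.22 CPM in the wildtype pair of libraries against 7.17 and 7.48 CPM in the mutant pair, a mean of 2.89 ± 0.468 against 7.32 ± 0.220 CPM and a log2 fold change of 1.35 ± 0.25. C1qb measured 3.57 and 3.09 against 5.15 and 6.92 CPM, a log2 fold change of 0.84 ± 0.27. C1qc measured 2.77 and 3.34 against 5.32 and 5.29 CPM, a log2 fold change of 0.80 ± 0.26. C1qa supplied 28.7% and 33.3% of C1q reads in wildtype and 40.6% and 38.0% in mutant libraries, so that both mutant shares lay above both wildtype shares. The 95% Wilson intervals overlap in either pair, with 22.4% to 36.02% against 35.95% to 45.5% in pair 1 and 26.4% to 41.1% against 32.5% to 43.8% in pair 2.

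The series speaks of littermate pairs, and same-numbered libraries were read as pairs, which was not tested. The log2 ratio had an SD of 0.831 over the tested members in pair 1 and 0.594 in pair 2. Mpo entered pair 1 alone because it had 0 reads in wildtype replicate 2. Counting error of members with few reads is part of these SDs. How much of the spread it makes up was not computed, so no difference between members or pairs is read from them. Pair 1 had the larger ratio in 20 of the 34 members that had reads in every library, where 49.7% of tested genes do. The pan-leukocyte median was 1.40 in pair 1 and 1.03 in pair 2, that of monocyte and granulocyte genes 0.99 and 0.96, and that of Fc receptor and complement genes 0.81 and 1.03. Fcgr2b, Clec7a and Tyrobp stood out with larger ratios in pair 2, and Plac8, Fcgr1, Coro1a and Csf3r with larger ratios in pair 1; these genes were picked after their values were seen.

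**Figure D3:**
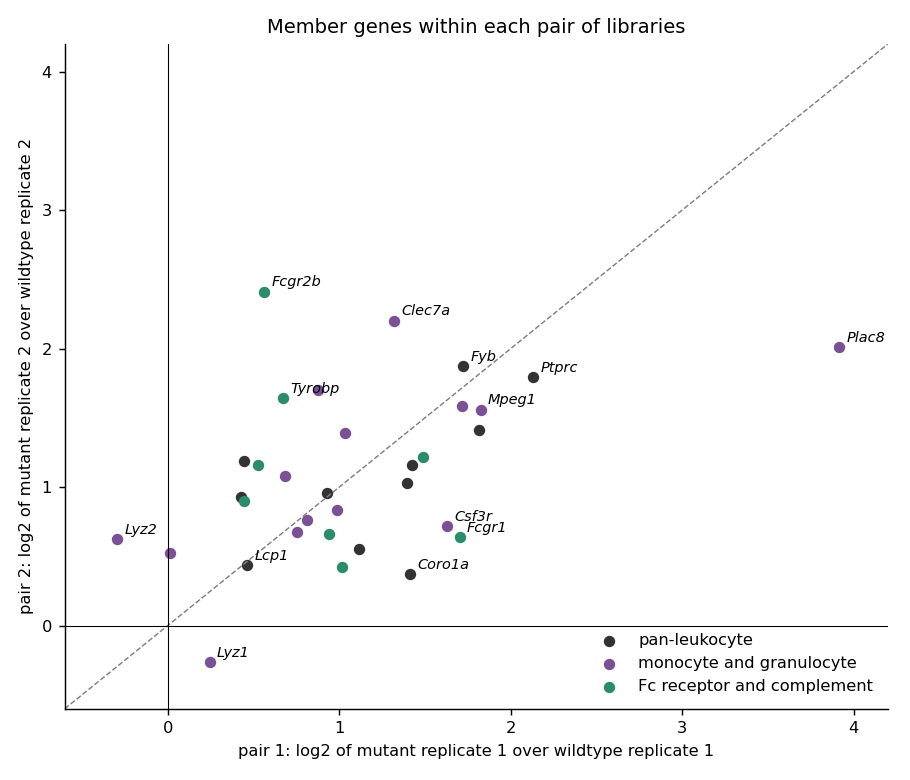
Log2 ratio of mutant over wildtype in pair 1 (horizontal) and pair 2 (vertical) for 33 tested members, which leaves out Mpo with its 0 reads in wildtype replicate 2; the dashed line marks equal ratios. Ptprc, Fyb and Mpeg1 lie near the line at 1.56 to 2.13, Lyz1 and Lyz2 have a negative value in 1 pair each, and Plac8 lies far to the right.

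The libraries of one genotype differ in ways that the choice of members did not use. Between the mutant libraries, the level was higher in replicate 1 for 21 of 35 members, beside 50.4% of tested genes. Exact 95% counting intervals of this ratio lay above 1 for 8 members, Ptpn6, Vav1, Coro1a, Mpeg1, Lyz1, Plac8, Msr1 and Csf3r, and below 1 for 5, Cd53, Lyz2, Lgals3, Fcgr3 and C1qb. None of the 8 was an Fc receptor or complement gene, a group with only 8 of the 35 members. How many of all tested genes have such intervals off 1 was not computed, for mutant or for wildtype libraries. No trait of the members or of a group is therefore read from these counts. Between the wildtype libraries 17 of 35 members were higher in replicate 1, beside 49.7% of tested genes, and the interval lay above 1 for Clec7a, Lyz2, Tyrobp and Fcgr2b and below 1 for Coro1a. Differences between replicates as large as these enter the SE of each fold change above.

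**Figure D4:**
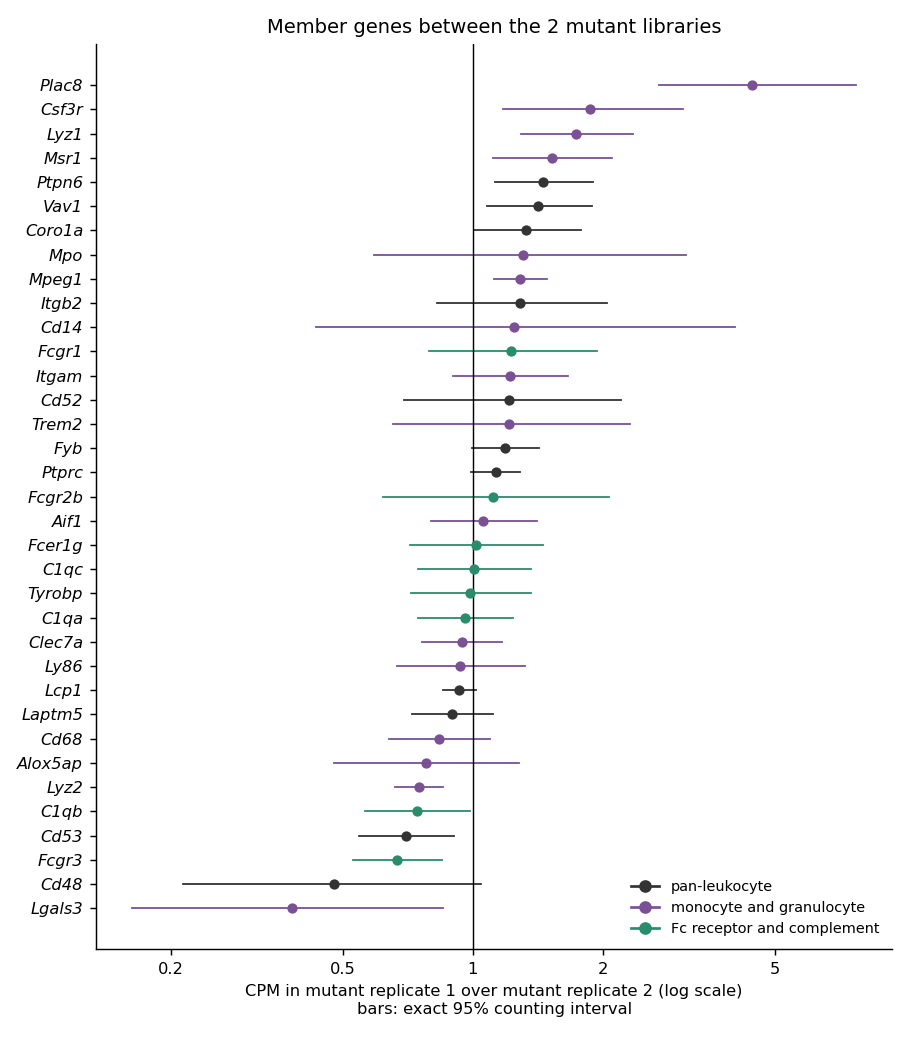
Ratio of the level in mutant replicate 1 to that in mutant replicate 2 for each of the 35 members, on a log axis, with exact 95% counting intervals. Plac8 has the highest ratio, 4.43, and Lgals3 the lowest, 0.381, while Ptprc, Fyb and most Fc receptor and complement genes have intervals that cover 1.

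Markers of other blood cells show which leukocytes these libraries can hold. T cell markers summed to 1.07 to 1.60 CPM in wildtype and 1.27 to 1.41 CPM in mutant libraries over 7 genes with a row, B cell markers to 0.585 to 0.757 and 0.847 to 1.10 CPM over 8, and NK cell markers to 0.160 to 0.883 and 0.396 to 0.565 CPM over 7. Cd3d and Ncr1 had 0 reads in all libraries. Markers of neutrophil granules summed to 0.692 to 0.694 CPM in wildtype and 0.847 to 1.23 CPM in mutant libraries over 10 genes, with 0 reads of Elane, Camp and Cebpe in every library. Of the granule genes with reads, S100a8 had 0 and 0 in wildtype and 4 and 3 in mutant libraries, S100a9 had 1 and 0 against 6 and 6, and Ctsg had 5 and 2 against 7 and 2; none of the 10 had enough reads to be tested. The part of neutrophils in the difference of Mpo and Csf3r was not tested. Of 10 resident macrophage markers 9 were tested, and edgeR and DESeq2 each called 0. An unadjusted p below 0.05 went with higher values in 4 of them, and in 3.88% of all tested genes. With the block Adgre1, the antigen F4/80, and F13a1 passed, where 0.692% of all genes did with higher values. The 10 markers summed to 160 to 170 CPM in wildtype and 190 to 238 CPM in mutant libraries. Mrc1, a mannose receptor and the highest of them, had a log2 fold change of 0.22 ± 0.15, Maf 0.24 ± 0.18 and Mertk, a receptor for dying cells, -0.01 ± 0.16.

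Markers of other sources were in part higher in the mutant as well. Erythroid markers summed to 599 to 608 CPM in wildtype and 671 to 867 CPM in mutant libraries over 9 genes, of which Slc4a1 passed with the block and by DESeq2. Hepatocyte markers summed to 22.6 to 23.9 and 31.9 to 43.9 CPM over 10 genes, and Alb and Afp passed with the block, both higher in the mutant, and Alb by DESeq2 also. Mast cell markers summed to 53.5 to 56.2 and 72.0 to 76.8 CPM over 8 genes, with Cma1 past the threshold with the block, and megakaryocyte and platelet markers to 10.15 to 10.6 and 12.8 to 13.9 CPM over 8. Endothelial and endocardial markers summed to 1354 to 1384 CPM in wildtype and 1274 to 1308 CPM in mutant libraries over 10 genes, of which Npr3 passed with the block and by DESeq2, lower in the mutant. The part of blood and of neighbouring tissue in the members' difference was not tested.

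**Figure D5:**
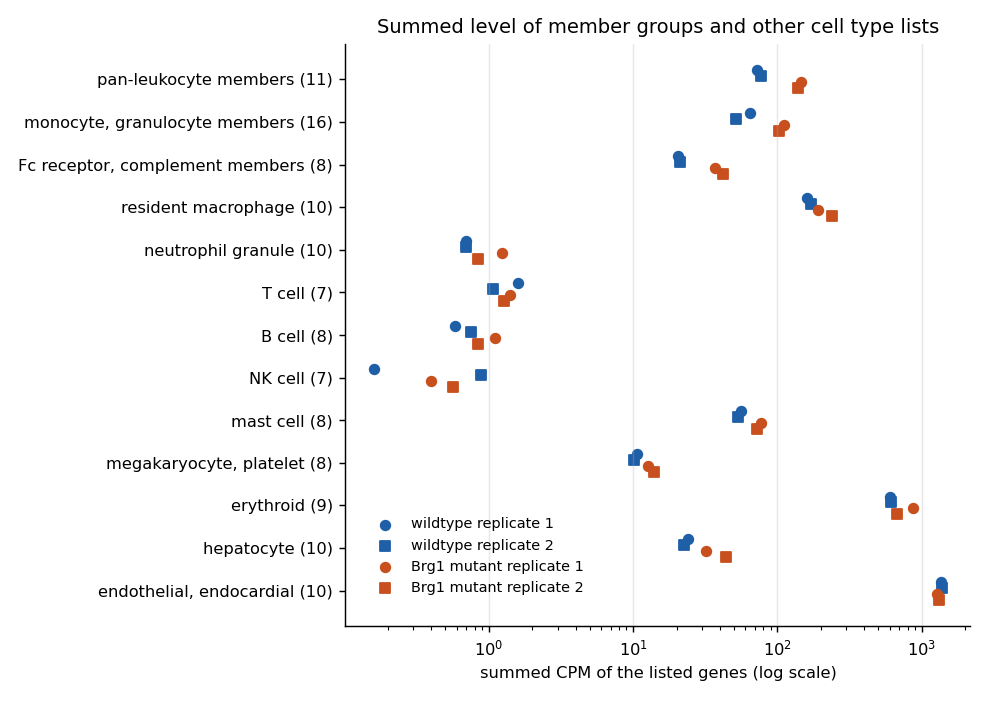
Summed CPM of the 3 member groups and of 10 lists of cell type markers in each library, on a log axis, with the number of genes found in the table in brackets; blue is wildtype, orange Brg1 mutant. The sums separate the genotypes in the 3 member groups, which were picked with this contrast known, and in all other lists but those of T and NK cells. Endothelial sums are lower in the mutant libraries and the other separated sums higher. Most of the mast cell sum is Kit in every library. T, B, NK and neutrophil granule markers lie between 0.160 and 1.60 CPM, on few reads, and endothelial markers lie at 1274 CPM or more in every library.

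The kinases, adaptors and regulators that act below the receptors were followed as a list of 20 genes. All 20 were tested, and edgeR and DESeq2 each called 0. An unadjusted p below 0.05 went with higher values in 13 genes and with lower values in 0. Of all tested genes 3.88% had such a p with higher values. With the block 3 genes of the list passed, all higher, where 0.692% of all genes did with higher values. The median log2 fold change was 0.98. Among these were Lcp2, the adaptor SLP-76, at 1.29 ± 0.29, and Spi1, which encodes PU.1 and is listed under its older symbol Sfpi1, at 1.94 ± 0.42. Spi1 had 15 and 8 reads in wildtype and 65 and 31 reads in mutant libraries. Syk, the kinase that docks on ITAMs, had the fold change closest to 0 and the only negative one, -0.08 ± 0.16, and Lyn and Sirpa, the most abundant of the list, had 0.28 ± 0.15 and 0.41 ± 0.16.

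Integrin partners and growth factor receptors were followed as a list of 10. Of these 7 were tested. Calls numbered 0 by edgeR, 3 by DESeq2 and 4 with the block, all higher in the mutant. Of all genes 0.261% were called higher by DESeq2 and 0.692% with the block. In 5 genes of the list an unadjusted p below 0.05 went with higher values, as in 3.88% of all tested genes. Itgal, the CD11a chain that pairs with Itgb2, was at 1.84 ± 0.36. Itgax, the CD11c chain, was at 3.95 ± 0.63 on 3 and 1 wildtype reads and 52 and 20 mutant reads. Both wildtype levels of Itgax were below the low count filter's cutoff of 0.571 CPM. It was tested only through the mutant libraries, so its fold change and calls are a description. Csf1r, the receptor on which macrophages depend, had a log2 fold change of 0.99 ± 0.17 and Csf2rb of 1.68 ± 0.43. Csf1, a ligand of Csf1r, was at 0.22 ± 0.18, and Itga4, which is not confined to leukocytes, at 0.34 ± 0.14.

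The complement genes beyond C1q were mixed in direction. Of 12 genes 10 were tested and 0 were called by edgeR or DESeq2. An unadjusted p below 0.05 was found for 4 higher genes and 1 lower one. Of all tested genes 3.88% had such a p with higher values. The median log2 fold change of the list was 0.43. C3ar1, the receptor for the fragment C3a on macrophages, passed with the block at 0.90 ± 0.18. C1ra, a protease that works with C1q, was at -0.51 ± 0.52 and C3 at -0.08 ± 0.52. Cd55 and Serping1, which restrain complement, were at 0.38 ± 0.15 and 0.09 ± 0.20.

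The authors' deposited table holds 11507 rows from their own edgeR comparison, with 15 of the 35 members among them. Of all 11507 rows, members included, 43 were past an adjusted p of 0.05 in that comparison. Members past an adjusted p of 0.05 in the authors' deposited table number 5, which are Ptprc, Fyb, Mpeg1, Clec7a and Ptpn6, all higher in the mutant. Its log2 fold changes for them, turned to mutant over wildtype in the authors' deposited table, are 1.97, 1.80, 1.70, 1.72 and 1.23. The 20 members without a row include all Fc receptor and complement genes other than Fcgr3 and C1qb.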

How the data were processed

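Total RNA was sequenced from 2 wildtype and 2 Brg1 mutant cushion libraries. The authors deposited raw read counts by gene symbol. The submitters' processing notes name mm10, TopHat2 with Bowtie2, HTSeq, SAMtools and edgeR; their versions, the gene models and the strand option were not given in the sources used here, so reads of a gene and of one that overlaps it on the other strand cannot be separated. A second deposited table holds the authors' edgeR results, with log2 fold changes (wildtype over mutant) and log2 CPM, a likelihood ratio score, p-values and, for rows past 0.05, a fold change ratio.

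Rows that name no gene were left out: reads in no feature were 51.8% to 54.4% of all tallied reads, multiply aligned reads 16.1% to 17.0% and ambiguous reads 0.187% to 0.210%. Counts were fitted by edgeR 4.0.16 under R 4.3.3 (scaling by TMM, filterByExpr, quasi-likelihood test, Benjamini-Hochberg over 14316 genes, threshold 0.05). The SE of a log2 fold change comes from it and its F statistic. CPM uses TMM-scaled totals; levels per kb divide by the longest basic coding transcript of GENCODE M21 (mm10), which also gave gene positions. Alternatives were a replicate block, RLE scaling, no filter, a filter of CPM over 1 in 3 libraries, DESeq2 1.42.0, limma-voom 3.58.1, a threshold of 0.10 and the removal of 1 library at a time with the gene set kept. The fits were tested on simulated counts. Counting intervals are exact binomial or Wilson at 95%. The series describes paired littermates and both genotypes use replicate numbers 1 and 2, and the numbers were read as pairs. Deviations of same-numbered libraries from their genotype mean had a correlation of 0.144 across genes. With 2 libraries per genotype the swapped pairing gives the same value with the opposite sign, so the correlation does not test the pairing. Members, lists and their roles were chosen with earlier results of these data known. All 35 members may be named; values per library go to those past the threshold, the most abundant per kb, those with the largest and smallest fold changes in each group and the one that failed the filter, and to others chosen after their values were seen. Of the other lists, the genes of highest level, those past the threshold with the block and further ones picked after their values were seen are named. Some genes of these lists are not reported here by name.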

Additional observations from a re-analysis of the deposited data

How the results depend on the processing

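The number of members past the threshold, 3 of 34, was 9 with the replicate block, 12 of 35 without a low count filter and 5 with DESeq2, and leaving out 1 library gave 0 to 13; it was 3 with RLE scaling, with the stricter filter and at a threshold of 0.10, and 2 with limma-voom. The number over all genes, 9, was 127 with the replicate block, 236 without a filter, 59 with DESeq2 and 24 at a threshold of 0.10, and 0 to 396 with 1 library left out; edgeR gave 0 without wildtype replicate 2, with 761 genes at an unadjusted p below 0.05. The median log2 fold change of the members, 1.00, was 1.06 without a filter (35 genes), 0.94 with the stricter filter (25 genes) and 1.07 with DESeq2, and 1.00 to 1.19 with 1 library left out. The stricter filter removes low members and no filter adds Cd14; the cause of the other shifts was not tested. Of 34 tested members 31 kept the sign of their fold change in the 10 refits that could hold them. The exceptions reversed with 1 library left out: Lyz1 ran from -0.41 (without mutant replicate 1) to 0.38 and was -0.077 without wildtype replicate 2, Lyz2 ran from -0.077 (without wildtype replicate 2) to 0.43 and was -0.059 without mutant replicate 2, and Lgals3 ran from -0.46 (without mutant replicate 2) to 0.91 and was -0.084 without wildtype replicate 1. Depth limits Mpo, Cd14, Cd48, Lgals3, Plac8, Trem2 and Fcgr2b, each with under 10 reads in at least 1 library. A library left alone in its group is assumed to vary like the other group.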

Other observations

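Within the lists of other blood cells, single genes differed more than the sums did. Cma1, a chymase of connective tissue mast cells, had 7 and 3 reads in wildtype and 44 and 20 reads in mutant libraries, a log2 fold change of 2.53 ± 0.52. Cpa3, a mast cell carboxypeptidase, had 22 and 8 reads against 49 and 50 reads (1.71 ± 0.47), and Mcpt4, another chymase, 15 and 7 against 36 and 19 reads (1.22 ± 0.46), while Hdc, which makes histamine, was level at 38 and 29 against 36 and 33 reads. Of these 4 genes only Cma1 passed, and only in the edgeR fit with the replicate block. Cma1, Cpa3 and Mcpt4 reached the low count filter's cutoff of 0.571 CPM in both mutant but not in both wildtype libraries. Ppbp, a platelet chemokine, had 20 and 20 reads in wildtype and 64 and 42 reads in mutant libraries (1.31 ± 0.35), and Pf4, another one, 58 and 41 against 58 and 38 reads (-0.12 ± 0.30); neither passed. These genes were named after their values were seen.

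Timd4, a receptor for phosphatidylserine on yolk sac macrophages, had 5 and 6 reads in wildtype and 20 and 29 reads in mutant libraries, with a log2 fold change of 2.12 ± 0.61. Cd163, a haemoglobin scavenger receptor, had 9 and 1 reads against 5 and 13, and was too low to be tested. Npr3, a natriuretic peptide receptor of endocardium, fell by 0.88 ± 0.12 on the log2 scale and passed with the replicate block, and was the only one of 10 endothelial and endocardial markers to do so.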
